A study of Mus musculus with 6 samples.

Results

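Of the genes that carry a cell from G1 into S phase, 10 are described here in mouse primary keratinocytes, the epithelial cells of the epidermis: the D cyclins Ccnd1, Ccnd2 and Ccnd3, the cyclin Ccne1, the kinases Cdk4 and Cdk6, and the inhibitors Cdkn1a, Cdkn1b, Cdkn2a and Cdkn2b. They were taken by symbol from a gene table of 52550 identifiers, and all 10 were found. The cells came from the skin epidermis of wild type C57BL/6 mice aged 0 to 2 days after birth, were cultured for 2 days, and then either kept without treatment or exposed for 12 h to recombinant IL-33, an alarmin cytokine related to IL-1. Messenger RNA was sequenced from 3 libraries per group, at an IL-33 dose that the labels do not give. Both groups share the labelled strain, genotype, age and days of culture, so the cytokine is the only labelled difference between them. The source labels read untreated or treated with recombinant IL-33 and name no vehicle, so effects of vehicle or handling cannot be told apart from the cytokine's. The labels do not state if the 3 libraries in each group are from different cultures or animals, and the p-values rest on a spread between libraries that could be technical alone.

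In G1, growth signals raise the D cyclins, which bind and activate Cdk4 and Cdk6. These kinases phosphorylate the retinoblastoma protein and free the E2F factors, which in turn switch on Ccne1 and the genes of DNA synthesis, and cyclin E with Cdk2 completes the step. Inhibitors of the CIP/KIP family (p21 from Cdkn1a, p27 from Cdkn1b) act mainly on cyclin E and cyclin A complexes, while those of the INK4 family (p16 from Cdkn2a, p15 from Cdkn2b) bind Cdk4 and Cdk6 alone. In the epidermis p21 is known for its link to cell-cycle exit, and p16 for its accumulation as keratinocytes age in culture. Cyclin D and p27 are also controlled through protein breakdown, which messenger RNA does not show.

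Cdkn2a makes 2 unrelated proteins from 2 first exons spliced to the same second exon, and only reads on the first exons tell the products apart. In GENCODE release M21 (GRCm38, the assembly also called mm10) the gene lies on the minus strand of chromosome 4, and its shared second exon runs from 89276645 to 89276985. The transcript ENSMUST00000060501.4 starts with an exon at 89281986 to 89282192 and codes 168 codons, the p16Ink4a product. ENSMUST00000107131.1 starts upstream, with an exon at 89294334 to 89294653, and codes 169 codons, the p19Arf product. Both coding junctions are shown 5′ to 3′ on the transcript strand, with the last 24 bases of each first exon in lower case and the first 24 bases of the shared second exon in capitals.
p16Ink4a, ENSMUST00000060501.4: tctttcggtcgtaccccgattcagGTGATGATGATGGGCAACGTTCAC
p19Arf, ENSMUST00000107131.1: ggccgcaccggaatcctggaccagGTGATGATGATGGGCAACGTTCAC
The lower-case parts differ and the capitals are identical. The annotation gives the second exon phase 0 in the p16Ink4a transcript, so that it opens on a whole codon, and phase 2 in the p19Arf transcript, so that its first 2 bases close a codon begun in the first exon.

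The libraries held 34188173 to 45266298 deposited estimated counts, and IL-33 replicate 2 was the shallowest. Low values piled up most at 4, and less at 8 and at 2. In untreated replicate 1, 1382 transcripts lay near 4, 790 near 8 and 771 near 2, against 405 near 3. On this partial pattern 4 deposited counts were taken as about 1 sequenced fragment, and the floor as 3 fragments or 12 deposited counts in a library. Keratinocyte markers, among them Krt5 and Krt14, were abundant, with a sum over 10 genes of 41121 to 42156 CPM (counts scaled to the library total and by TMM between libraries) in untreated libraries and 41243 to 44059 CPM with IL-33. Melanocyte RNA was also present: the 8 melanocyte markers were all tested and summed to 1158 to 1209 CPM untreated and 1156 to 1257 CPM with IL-33. The 10 fibroblast markers summed to 169.6 to 207.8 CPM untreated and 169.8 to 207.5 CPM with IL-33. Of 10 immune markers 8 were under the floor in every library, Ptprc among them, and of 5 endothelial markers 3 were. Levels of the G1 genes are therefore those of a mixed culture, in which a change in the number of cells of a type cannot be told apart from a change in RNA per cell.

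Levels between genes are compared as FPKM (fragments per kilobase, scaled to depth), which the authors computed per gene. Cdkn1a stood highest of the 10, with 216, 215 and 220 FPKM in the untreated libraries and 231, 221 and 216 with IL-33. Its lowest value lay above the highest of the next gene, Ccnd1. Cdkn1a exceeded 98.9% of the 15778 tested genes in mean FPKM, Ccnd1 97.7%, Ccnd2 96.1% and Cdk4 95.8%. The rest of the order was far down: Ccne1 exceeded 70.5% of tested genes, Cdk6 67.8%, Cdkn1b 49.5%, and Cdkn2b and Ccnd3 39.3% and 39.2%. Neighbours in the order did not overlap over the 6 libraries, except that the ranges of Ccnd2 and Cdk4 overlapped, and those of Cdkn2b and Ccnd3. In means, Ccnd1 was 1.57 times Ccnd2, and Cdk4 was 6.77 times the next gene, Ccne1.

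**Figure D1:**
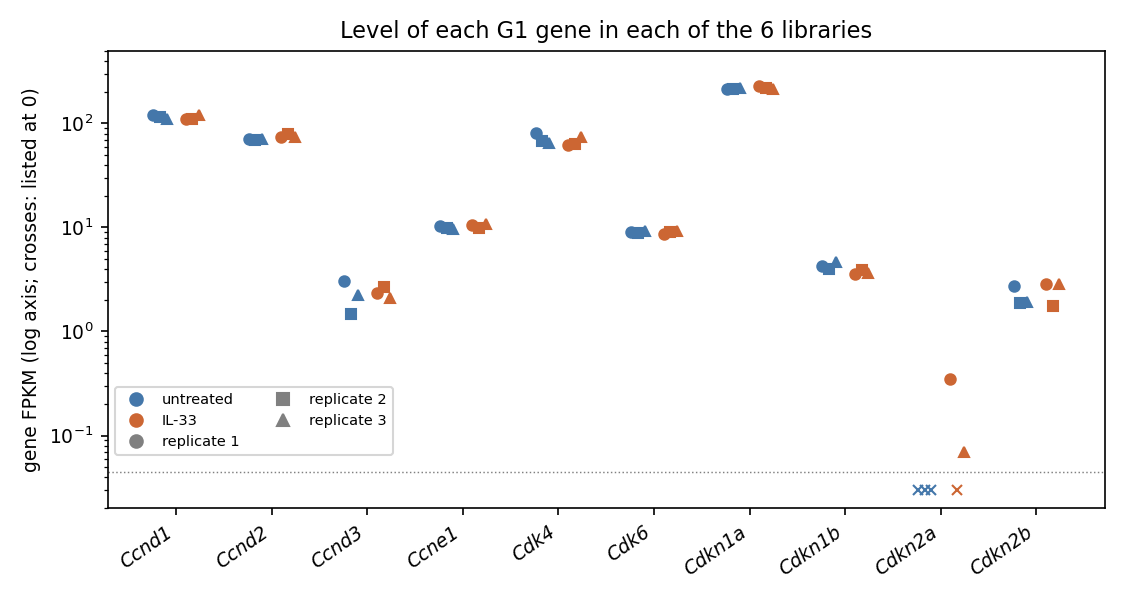
FPKM of each of the 10 G1 genes (log axis), with 1 point per library, colour for group and shape for replicate number; crosses under the dotted line mark libraries where a gene is listed at 0. Cdkn1a, Ccnd1, Ccnd2 and Cdk4 sit above 60 FPKM in every library, and Cdkn2a is listed at 0 in 4 of 6.

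The length used for a gene shaped that order. For 8 of the 10 genes the gene FPKM matched the merged exons of all annotated transcripts (implied length 0.9999 to 1.007 times that length), which can be longer than the main messenger. Cdkn1a was the exception: its FPKM implied 2223 bases, 0.626 times the 3553 merged bases of M21, which holds a later version of the gene with 5 transcripts where the deposited table has 3. Rescaled to 3553 bases, a setting chosen after seeing the data, it stood at 135 to 144 FPKM, above the 110 to 119 FPKM of Ccnd1 by far less than on the deposited values. That length includes transcripts to which no deposited counts were assigned, so the rescaled values can be too low. For Ccnd3 the merged exons span 8775 bases, and the FPKM of its transcripts summed to 8.22 to 18.6 where the gene FPKM was 1.48 to 3.05. On these transcript sums Ccnd3 overlapped Ccne1 (13.0 to 14.6 FPKM) rather than Cdkn2b (1.74 to 2.88 FPKM). Cdk4 then stood at 121 to 157 FPKM beside 109 to 123 FPKM for Ccnd2, again with overlapping ranges. Cdk6 summed to 16.2 to 23.4 FPKM, above Ccne1, but 4.28 to 11.2 FPKM of this lay on ENSMUST00000199156.1, a short transcript with 29 annotated codons. The Cdk6 transcript of 326 codons, ENSMUST00000165117.7, had 10.3 to 10.8 FPKM. That is below the 12.7 to 14.1 FPKM of the main Ccne1 transcript, ENSMUST00000108023.9. On the transcript sums Cdkn1a at 279 to 303 FPKM was still the highest, while Ccnd1 at 139 to 151 FPKM overlapped Cdk4 and lay above Ccnd2.

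The design asks whether IL-33 changes these messengers within 12 h. None of the 9 tested genes passed edgeR's quasi-likelihood test at an adjusted p under 0.05, a threshold that 0.0697% of the 15778 tested genes passed, and DESeq2, which called 0.463% of the genes it gave an adjusted p, and limma-voom called none of them either. Nor did any of the 37 tested transcripts of these genes pass, where 0.0299% of 40163 tested transcripts did. At an unadjusted p under 0.05 there were 2, Ccnd2 and Cdkn1b, where 6.74% of all tested genes passed that mark. The same 2 genes were those whose groups did not overlap in CPM, as was true of 13.7% of all tested genes. The log2 fold change (IL-33 minus untreated) was above 0 in 5 of the 9 and below in 4, with a median of 0.04, against a median of 0.00 over all tested genes. For 7 of the 9 the 95% interval lay within 1.5-fold in either direction, which was so for 61.9% of all tested genes. Cdkn2a had too few counts to be tested.

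**Figure D2:**
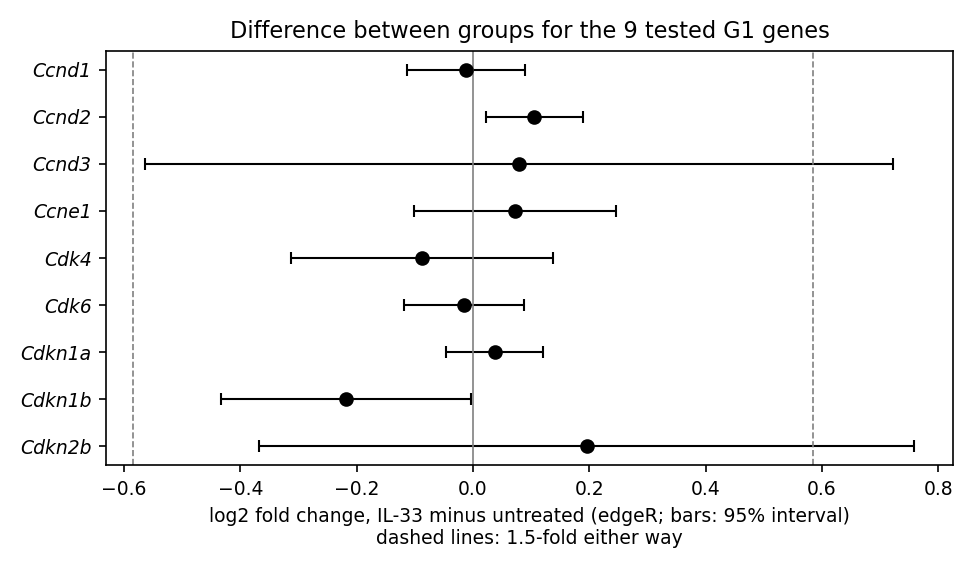
Log2 fold change of the 9 tested G1 genes, IL-33 minus untreated, with 95% intervals from the edgeR fit. The intervals of Ccnd3 and Cdkn2b are the widest and reach past 1.5-fold, and those of Ccnd2 and Cdkn1b do not include 0 before adjustment.

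Ccnd1 (ENSMUSG00000070348.5, chromosome 7, 144929931 to 144939925) encodes cyclin D1, the D cyclin that answers most to growth factors. It stood at 625, 603 and 576 CPM in untreated replicates 1 to 3 and at 582, 580 and 626 CPM with IL-33. The 2 groups covered the same range. The means were 601 ± 24.4 and 596 ± 26.3 CPM (SD, n = 3 per group), and the difference was -0.88% with a 95% interval of -7.62% to 6.36% (edgeR adjusted p = 0.973). Nearly all of its transcript FPKM, 99.4% untreated and 99.2% with IL-33, was assigned to ENSMUST00000093962.4, the transcript of 295 codons. The gene overlaps LTO1 on the opposite strand by 1771 bases. No source used here says that counting used strand, so reads from the overlap may be shared, and LTO1 stood at 159 ± 4.45 and 153 ± 6.95 CPM.

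Ccnd2 (ENSMUSG00000000184.12, chromosome 6, 127125162 to 127152193) encodes cyclin D2. It stood at 742, 727 and 734 CPM untreated and at 771, 823 and 776 CPM with IL-33. Every IL-33 library lay above every untreated one, and the untreated libraries were within 14.9 CPM of each other. The means were 734 ± 7.43 and 790 ± 28.7 CPM (SD, n = 3 per group), a difference of 7.58% with a 95% interval of 1.53% to 14.0% (log2 fold change 0.11, SE 0.037). The unadjusted p was 0.0185 and the edgeR adjusted p 0.733, so the difference did not pass over all genes. Its main transcript, ENSMUST00000000188.11 with 289 codons, held 94.4% of the transcript FPKM untreated and 93.5% with IL-33. That transcript had 104, 102 and 104 FPKM untreated and 109, 116 and 109 with IL-33 (edgeR adjusted p = 0.913). It was the only one of 37 tested transcripts of these genes at an unadjusted p under 0.05, which 4.24% of all tested transcripts reached. The antisense gene Gm43126 overlaps Ccnd2 by 994 bases and stood at 29.2 ± 7.69 and 26.5 ± 2.48 CPM.

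Ccnd3 (ENSMUSG00000034165.16, chromosome 17, 47505051 to 47599691) encodes cyclin D3, the D cyclin linked to differentiating cells in several tissues. It was the most uneven gene of the set in untreated cells, at 29.9, 14.6 and 22.0 CPM, against 23.0, 26.5 and 20.8 CPM with IL-33. The IL-33 libraries all lay inside the untreated range. The means were 22.2 ± 7.67 and 23.5 ± 2.91 CPM (SD, n = 3 per group), and the interval of the difference, -32.4% to 65.0%, allows a sizeable change in either direction (edgeR adjusted p = 0.971). The log2 fold change was 0.08 with all libraries, -0.15 without untreated replicate 2, the lowest library, and 0.35 without untreated replicate 1, the highest. Ccnd3 overlaps Bysl on the opposite strand by 361 bases, a gene several times higher at 130 ± 1.62 and 127 ± 1.22 CPM, and reads from this overlap may be shared too.

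The assignment of Ccnd3 reads to transcripts was uneven too. The annotation has 21 Ccnd3 transcripts in the deposited table, of which 5 share 1 coding sequence of 292 codons and differ outside it. Among these, ENSMUST00000183044.7 had 8.11 FPKM in untreated replicate 1 and 0.062 to 0.707 in the other libraries. ENSMUST00000182209.7 had the most Ccnd3 FPKM in 5 of the 6 libraries, with 1.88, 3.25 and 6.28 FPKM untreated and 6.73, 9.12 and 6.74 with IL-33 (log2 fold change 0.98, unadjusted p = 0.0871, edgeR adjusted p = 1.00). Every IL-33 library lay above every untreated one for this transcript, but untreated replicate 3 and IL-33 replicate 1 were close, at 6.28 and 6.73 FPKM. The share of all tested transcripts whose groups do not overlap was not counted. Summed over the 5 transcripts that code the same protein, the values were 10.0, 5.63 and 7.34 FPKM untreated and 9.06, 10.7 and 7.33 with IL-33, so the groups overlapped. None of the 9 Ccnd3 transcripts tested passed.

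**Figure D3:**
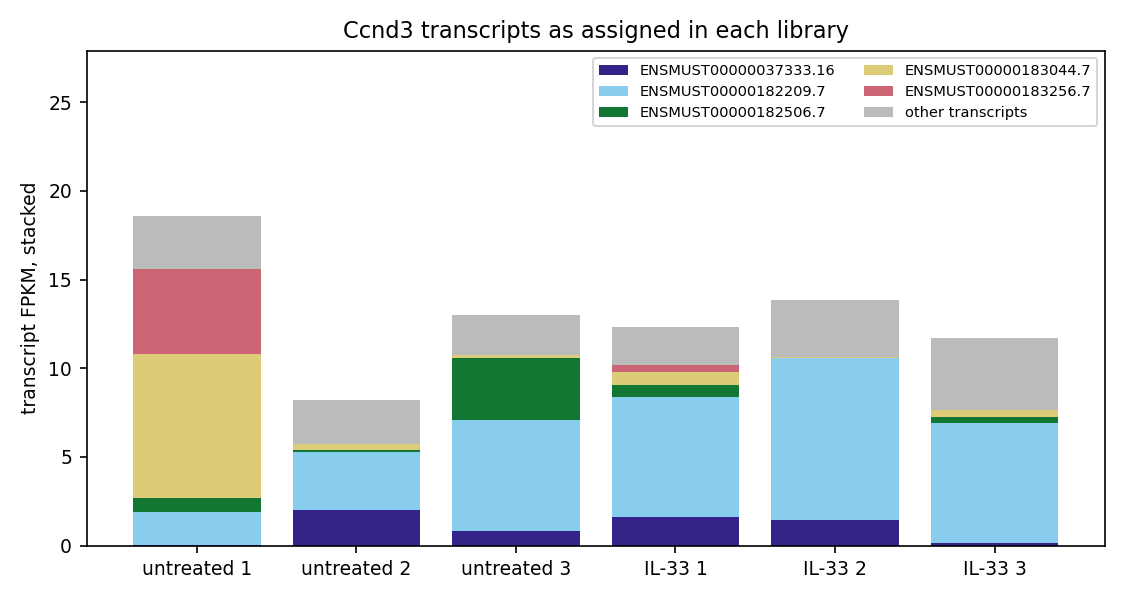
FPKM of Ccnd3 transcripts stacked for each library, with the 5 that reached a mean of 1 FPKM in a group coloured and the rest in grey. Untreated replicate 1 stands apart, with 8.11 FPKM on ENSMUST00000183044.7, while ENSMUST00000182209.7 leads in the other 5 libraries.

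Ccne1 (ENSMUSG00000002068.16, chromosome 7, 38097984 to 38107534) encodes cyclin E1, itself a target of E2F. It stood at 30.6, 29.1 and 28.4 CPM untreated and at 31.3, 29.4 and 31.8 CPM with IL-33. The groups overlapped through IL-33 replicate 2. The means were 29.4 ± 1.11 and 30.9 ± 1.27 CPM (SD, n = 3 per group), and the 95% interval ran from -6.80% to 18.6% (edgeR adjusted p = 0.897). A single transcript of 408 codons, ENSMUST00000108023.9, held 97.4% of its FPKM in both groups.

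Cdk4 (ENSMUSG00000006728.12, chromosome 10, 127063534 to 127067920) encodes the kinase that takes up D cyclins, and Cdk6 (ENSMUSG00000040274.11, chromosome 5, 3341485 to 3531008) its close relative. Cdk4 stood at 289, 245 and 234 CPM untreated and at 226, 230 and 266 CPM with IL-33. Untreated replicate 1 was the highest library, IL-33 replicate 3 the next, and the groups overlapped. The means were 256 ± 29.2 and 241 ± 22.0 CPM (SD, n = 3 per group), with an interval of -19.5% to 10.0% (edgeR adjusted p = 0.90), and without untreated replicate 1 the log2 fold change was 0.0026. Cdk4 overlaps Tspan31 on the opposite strand by 641 bases, a gene at 123 ± 4.82 and 112 ± 5.39 CPM.

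Cdk6 was among the steadiest genes of the set, at 141, 139 and 144 CPM untreated and 136, 142 and 143 CPM with IL-33. Its means were 142 ± 2.59 and 140 ± 3.87 CPM (SD, n = 3 per group), and the interval was -7.88% to 6.23% (edgeR adjusted p = 0.967). In FPKM Cdk4 made up 88.5 ± 1.20% of the 2 kinases' sum untreated and 88.1 ± 0.746% with IL-33. For Cdk4 18.5% of the transcript FPKM untreated and 16.5% with IL-33 was assigned to a retained-intron transcript without a coding sequence, ENSMUST00000145670.1, while the coding transcript of 303 codons, ENSMUST00000006911.11, held 74.1% and 75.0%. For Cdk6 the transcript of 326 codons, ENSMUST00000165117.7, had 10.3 to 10.8 FPKM in every library. A short transcript with 29 annotated codons, ENSMUST00000199156.1, ran from 4.28 to 11.2 FPKM.

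Cdkn1a (ENSMUSG00000023067.13, chromosome 17, 29090976 to 29100727 in the later version of M21) encodes p21, a main target of p53. It stood at 534, 534 and 542 CPM untreated and at 569, 547 and 535 CPM with IL-33. The untreated libraries were nearly identical, and IL-33 replicate 3 lay among them. The means were 536 ± 4.80 and 550 ± 17.4 CPM (SD, n = 3 per group), with an interval of -3.12% to 8.67% (edgeR adjusted p = 0.889), and the log2 fold change of 0.037 was 0.0099 without IL-33 replicate 1. In M21 its transcripts with a mean of at least 1 FPKM start 2790 bases apart and code the same 159 codons. The downstream start, ENSMUST00000023829.6, held 81.4% to 85.5% of the gene's transcript FPKM and the upstream start, ENSMUST00000119901.7, 14.3% to 18.4%. Neither transcript passed the test (edgeR adjusted p = 1.00 for each).

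Cdkn1b (ENSMUSG00000003031.14, chromosome 6, 134920401 to 134925513) encodes p27. It stood at 21.8, 20.1 and 23.6 CPM untreated and at 18.04, 19.6 and 18.7 CPM with IL-33. Every IL-33 library lay below every untreated one, but IL-33 replicate 2 and untreated replicate 2 were only 0.498 CPM apart. The means were 21.8 ± 1.76 and 18.8 ± 0.775 CPM (SD, n = 3 per group), a difference of -14.0% with a 95% interval of -25.9% to -0.20% (log2 fold change -0.22, SE 0.096). The unadjusted p was 0.0475 and the edgeR adjusted p 0.740, so this difference did not pass over all genes either. Its 3 transcripts all code 197 codons, and none was called.

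Cdkn2a (ENSMUSG00000044303.6) was the lowest gene of the set. It is listed at 0 in all 3 untreated libraries and in IL-33 replicate 2, and had 22 deposited counts in IL-33 replicate 1 and 5 in IL-33 replicate 3, or about 5.5 fragments and under the floor. These are estimated counts, and all 37 mitochondrial genes in the table, which every cell uses, are likewise listed at 0 in all 6 libraries, so a listed 0 is not read as absence and no upper limit is drawn from it. The 22 counts were split evenly, 11 on the p16Ink4a transcript and 11 on the p19Arf transcript shown above, and the 5 counts as 4 and 1. With so few fragments the share of each product could not be tested, and a difference between groups was not detectable at this depth (edgeR adjusted p = 0.719 with no filter on low counts).

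Cdkn2b (ENSMUSG00000073802.4, chromosome 4, 89306299 to 89311039 in the later version of M21) encodes p15, a target of TGF-beta, and lies 11645 bases from Cdkn2a. Unlike its neighbour it was above the floor in every library, with 188, 122 and 136 deposited counts untreated and 194, 92 and 198 with IL-33. That is 4.20, 2.95 and 3.001 CPM untreated and 4.41, 2.70 and 4.48 CPM with IL-33. The highest and lowest libraries were both from the IL-33 group. The interval of the difference was wide, -22.5% to 69.2% (edgeR adjusted p = 0.913), and the log2 fold change of 0.20 ran from 0.078 without IL-33 replicate 3 to 0.39 without IL-33 replicate 2. In FPKM it stood at 1.74 to 2.88, where Cdkn2a reached at most 0.35.

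The balance of these messengers within a library does not depend on scaling between libraries. Ccnd1 made up 61.7%, 61.9% and 60.3% of the summed D cyclin FPKM untreated and 59.4%, 57.7% and 61.1% with IL-33, with means of 61.3 ± 0.867% and 59.4 ± 1.71% (SD, n = 3 per group). The groups overlapped through IL-33 replicate 3 (two-sided exact permutation p = 0.2; 0.35 after Benjamini-Hochberg adjustment over 7 such quantities). On the transcript sums, an alternative chosen after seeing the data, the share of Ccnd1 was 54.2 ± 1.08% and 52.3 ± 1.62%, and that of Ccnd3 4.91 ± 1.75% and 4.58 ± 0.419% where the gene FPKM gave 1.20 ± 0.392% and 1.25 ± 0.164%. The log2 ratio of the CIP/KIP inhibitors (Cdkn1a plus Cdkn1b) to the D cyclins was 0.24 ± 0.054 untreated and 0.24 ± 0.077 with IL-33 (two-sided exact permutation p = 1.0). On transcript sums the ratio was 0.11 ± 0.052 and 0.11 ± 0.086. Its sign changed only with Cdkn1a rescaled to 3553 bases, where it was -0.42 ± 0.054 and -0.42 ± 0.076. That length includes transcripts to which no deposited counts were assigned, so the rescaled ratio can be too low. Cdkn1a held 98.1%, 98.2% and 97.9% of the sum of Cdkn1a and Cdkn1b untreated and 98.5%, 98.3% and 98.3% with IL-33. The groups did not overlap in that share, but 3 libraries against 3 cannot give a p under 0.1, the value reached here (exact permutation, 0.35 after adjustment). With Cdkn1a rescaled to 3553 bases the share was 96.9 ± 0.216% and 97.4 ± 0.160%. The sum leaves out the CIP/KIP gene Cdkn1c, at a mean of 2.46 FPKM untreated and 2.39 with IL-33, beside 4.30 and 3.70 for Cdkn1b.

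**Figure D4:**
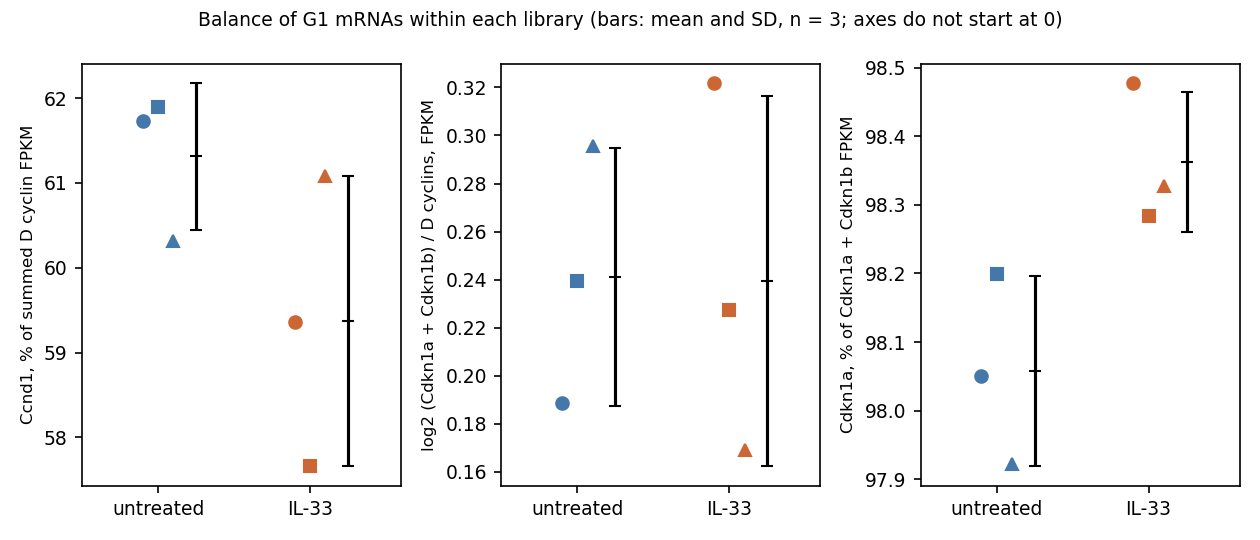
Ratios within each library by group, with 1 point per library (shape for replicate number, as circle, square and triangle for 1, 2 and 3) and the mean with SD beside them. Shown are the share of Ccnd1 in the D cyclins, the log2 ratio of Cdkn1a plus Cdkn1b to D cyclins, and the share of Cdkn1a in Cdkn1a plus Cdkn1b. The groups overlap in the first and second panels and not in the third, where all values lie between 97.9% and 98.5%.

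The rest of the G1/S machinery was read from a list of 23 other genes, all of them tested. Like the lists below, it was chosen with earlier results of these data known, so its share of called genes is no test of the list. At an adjusted p under 0.05 edgeR called 1 of them, where it called 0.0697% of all tested genes. This was Tfdp2, a dimerization partner of E2F factors. It rose from a mean of 10.1 ± 1.31 CPM untreated to 25.4 ± 1.42 CPM with IL-33 (SD over 3 libraries, edgeR adjusted p = 0.00231). In FPKM its level was low, at means of 0.64 untreated and 1.62 with IL-33. Tfdp1, a gene of the same list named here for scale, stood at 57.7 and 66.0 FPKM. Of the 23, 15 lay above 0 and 8 below, and the median log2 fold change was 0.05. The groups did not overlap in 4 of the 23, and 3 had an unadjusted p under 0.05, against 13.7% and 6.74% of all tested genes. Cdk2, the kinase partner of cyclin E, stood at 78.7 ± 3.51 CPM in untreated cells against 56.9 ± 12.0 CPM. It was called by DESeq2 (adjusted p = 0.0473) but not by edgeR (adjusted p = 0.676) or limma-voom. DESeq2 called 0.463% of all genes it gave an adjusted p. The E2F gene E2f2 stood at 5.89 ± 1.08 and 7.84 ± 0.744 CPM, and Cks1b, a small protein that binds CDKs and helps in the breakdown of p27, at 107 ± 7.07 and 96.4 ± 7.27 CPM (edgeR adjusted p of 0.740 and 0.763). The other inhibitors, named here after their values were seen, were low in both groups: the INK4 genes Cdkn2c and Cdkn2d at 11.3 and 6.09 CPM in the untreated group against 11.8 and 6.70 CPM, and the CIP/KIP gene Cdkn1c at 5.62 and 5.48 CPM.

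Genes upstream and downstream of the set were counted in 3 more lists, and none of their members passed in edgeR or limma-voom. Of all 15778 tested genes 7967 lay above 0, 6.74% had an unadjusted p under 0.05, and 13.7% had groups that did not overlap. The edgeR threshold was passed by 0.0697% of them, and DESeq2 called 0.463% of the genes it gave an adjusted p. The list of E2F target genes of S phase also held Mki67 and Cdk1, which are not confined to that phase. Among its 18 genes, 14 lay above 0 (median log2 fold change 0.04), the groups did not overlap in 6, and 3 had an unadjusted p under 0.05, all higher with IL-33. These were the proliferation marker Mki67, at 205 ± 16.2 and 246 ± 2.39 CPM (edgeR adjusted p = 0.319; called by DESeq2, adjusted p = 0.046), and the replication licensing genes Mcm7, at 226 ± 13.5 and 248 ± 4.00 CPM, and Mcm2, at 224 ± 3.47 and 243 ± 9.27 CPM. Of 17 p53 targets other than Cdkn1a, 9 lay above 0 and 8 below (median 0.01), the groups did not overlap in 4, 2 had an unadjusted p under 0.05 and DESeq2 called 0. The 2 were Zmat3 and Plk2. Zmat3 stood at 174 ± 7.11 and 193 ± 9.37 CPM and Plk2 at 529 ± 9.52 and 502 ± 5.11 CPM (edgeR adjusted p of 0.717 and 0.740). Of 9 genes listed for the INK4/ARF locus, 4 lay above 0 and 5 below (median -0.09), 0 had an unadjusted p under 0.05 and DESeq2 called 0. Among the 9, Cdkn2aip is an interactor of the Cdkn2a product rather than a regulator of the locus. The groups did not overlap in 3 of the 9. Cdkn2aip, with the smallest p of the list, was among these, at 22.5 ± 0.837 and 19.9 ± 0.454 CPM (edgeR adjusted p = 0.763). The others were Polycomb genes. Bmi1 stood at 38.4 ± 1.95 and 35.2 ± 1.06 CPM and Cbx7 at 5.35 ± 0.418 and 6.41 ± 0.444 CPM (edgeR adjusted p of 0.777 for each). The groups overlapped in the Polycomb genes Rnf2, at 66.2 ± 11.8 and 54.5 ± 8.71 CPM, Ezh2, at 101 ± 3.45 and 94.4 ± 15.0 CPM, and Ring1, at 26.9 ± 2.36 and 27.2 ± 4.73 CPM. Ezh2 and Ring1 are not among the 4 smallest p of the list and are named here as its remaining Polycomb genes.

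**Figure D5:**
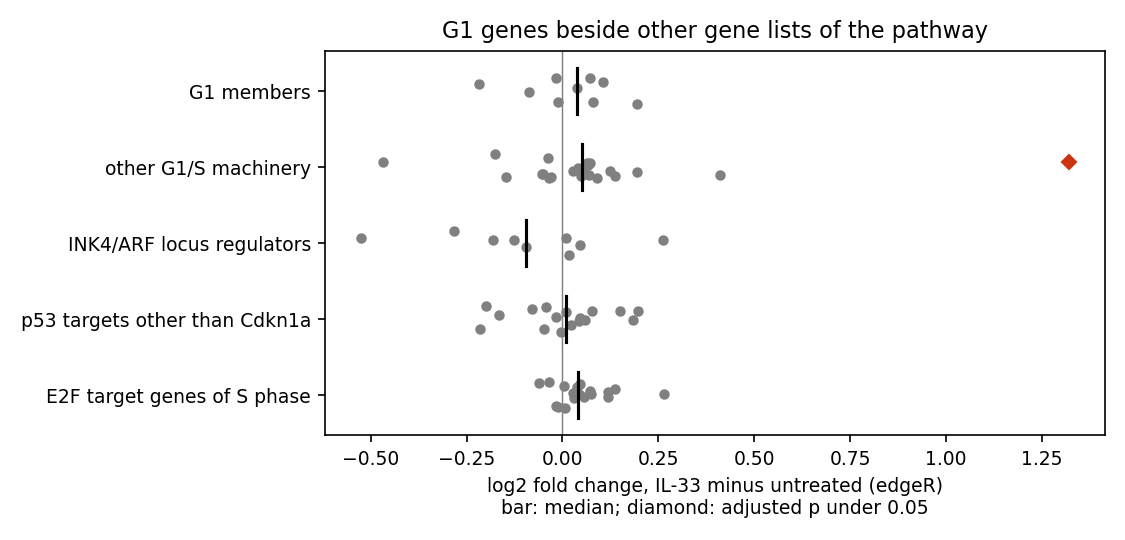
Log2 fold change of each tested gene, IL-33 minus untreated, for the 9 tested G1 genes and 4 other lists, with a bar at each list's median. Tfdp2, the diamond at 1.32, is the one gene that passed; the G1 genes lie between -0.22 and 0.20.

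The genes that most followed the leading cyclin and the leading inhibitor over the 6 libraries are given as a description. With Ccnd1, the highest Pearson r of log2 CPM over 6139 genes belonged to Ube2d3 (0.978), Prdm10 (0.978) and Exosc8 (0.971), and 30 genes (0.489%) had an r above 0.9. With Cdkn1a they were Hdgf (0.990), Fbh1 (0.980) and 9130401M01Rik (0.979), among 51 (0.831%) above 0.9. These are the highest of many values over 6 libraries, and no test was made of them.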

How the data were processed

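Per the submitters' processing notes, the tools were HISAT2 2.1.0, StringTie 1.3.4d, FastQC 0.11.7 and DESeq2 1.18.1 and the build was mm10, with no role for each and no annotation release. The authors deposited estimated counts and FPKM per gene and per transcript. The deposited estimated counts are whole numbers, proportional to FPKM times exon length, so they are not raw reads. Symbols and positions are those of GENCODE M21, matched without version numbers (52403 of 52550 genes).

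The main test was edgeR 4.0.16 (R 4.3.3), quasi-likelihood and robust, with TMM scaling and filterByExpr at a minimum count of 10, on all 15778 tested genes, with Benjamini-Hochberg adjustment and a threshold of 0.05; transcripts were tested the same way. CPM are TMM-scaled, errors are SD over 3 libraries, and intervals are at 95%. Ratios within libraries used exact permutation tests (scipy 1.17.1). The G1 genes and the lists were chosen with earlier results of these data known. All 10 G1 genes are named. Of each other list, those called and up to 4 with the smallest p are named, with the additions stated in the text. Of transcripts, those with a mean of at least 1 FPKM in a group are named. The 3 genes most like the leading cyclin or kinase and the leading inhibitor were sought among genes with a mean log2 CPM of at least 5. On simulated counts with 200 changed genes among 15401 tested, the test called 73% of 2-fold and 42% of 1.5-fold changes, and 12 of its 127 calls (9.45%) were false, more than the threshold of 0.05 aims at. The changed genes were drawn from those with a mean of at least 1 CPM. Counts were simulated at the deposited scale with the spread that edgeR estimated. These rates pool genes of unlike spread and are not those of any single G1 gene. No 2 libraries agreed within sampling noise (median chi-square 1.90 to 2.76 times its sampling value). Alternatives were other scalings, filters, DESeq2 1.42.0, limma 3.58.1 (voom, and log2 of FPKM plus 0.1 or 1), counts divided by 4, a threshold of 0.10, the replicate block, and each library left out.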

Additional observations from a re-analysis of the deposited data

How the results depend on the processing

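None of the 9 tested G1 genes, nor Cdkn2a where the filter was dropped, was called under any of the 18 alternatives, and the lowest adjusted p of any was 0.372, for Ccnd2 without IL-33 replicate 3. Ccnd2, Ccne1, Cdkn1a and Cdkn2b stayed above 0 and Cdkn1b below 0 in all 18. These settings are not independent: the threshold of 0.10 reuses the main log2 fold changes. Dropping the filter also left those of limma on log2 of FPKM plus 0.1 unchanged. For Ccnd2 and Cdkn1b, whose groups do not overlap, leaving out a library can hardly reverse the sign. Log2 fold changes with the opposite sign were 0.0094, 0.0025 and 0.0052 for Ccnd1 without untreated replicate 1, IL-33 replicate 1 and IL-33 replicate 2, -0.15 and -0.019 for Ccnd3 without untreated replicate 2 and IL-33 replicate 2, 0.0026 for Cdk4 without untreated replicate 1, and 0.0048 for Cdk6 without IL-33 replicate 1. With a library left out these values ran from -0.048 to 0.0094 for Ccnd1, -0.15 to 0.35 for Ccnd3, -0.16 to 0.0026 for Cdk4 and -0.032 to 0.0048 for Cdk6. For the genes that kept their sign they ran from 0.074 to 0.12 for Ccnd2, 0.049 to 0.10 for Ccne1, 0.0099 to 0.059 for Cdkn1a, 0.078 to 0.39 for Cdkn2b and -0.28 to -0.16 for Cdkn1b. The difference in the log2 CIP/KIP ratio, -0.0018, ranged from -0.043 to 0.033 with a library left out, and was 0.00033 on transcript sums and -0.0044 with Cdkn1a rescaled to its M21 merged exons, both added after seeing the data. The difference in the Ccnd1 share, -1.95 percentage points, ranged from -2.80 to -1.09 with a library left out.

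Counts over all genes moved more than those of the G1 genes. Against 11 genes called, DESeq2 called 73, limma-voom 5, no filter 17, and limma on FPKM 4 at each of its 3 settings; with a library left out the count ran from 11 to 90, the highest without IL-33 replicate 3. Against 12 transcripts, limma-voom called 5, and leaving out a library gave 6 to 28; none of them was a transcript of a G1 gene, an alternative count added after seeing the data. Same-numbered libraries had low correlations of their deviations, 0.066, 0.069 and 0.0014 for replicates 1 to 3. The values for replicates 1 and 2 were the highest of all pairs, but not every library correlated best with its own number. With 3 libraries per group these correlations cannot tell if same-numbered libraries share a culture or animal. With the replicate block 8 genes and 0 transcripts were called, while the difference in the Ccnd1 share is -1.95 with or without the block by construction (exact p = 0.5, where 3 pairs cannot give a p under 0.25). The share of the Cdkn2a transcripts could not be compared because 4 libraries hold none. Ccnd3, Cdkn2b and Cdkn2a are limited by depth or spread.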
